A study of Rattus norvegicus with 6 samples.

Results

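The expression of 10 chemokine genes was followed in rat mammary tumour cells of the line LN4D6, with and without transfection of CREB3L1, a transcription factor that sits in the endoplasmic reticulum membrane until proteases cut it free. The members are the 10 genes Cxcl1, Cxcl2, Cxcl3, Cxcl10, Cxcl12, Ccl2, Ccl5, Ccl7, Ccl20 and Cx3cl1, out of 14217 genes with a probe set of their own, and all probe sets annotated to exactly 1 of these symbols were used. There were 16 such probe sets, and 0 further probe sets listed a member among several symbols. The genes were picked from their differences between the same 6 arrays, some higher and some lower, so their differences are given here as a description, with no p-values, and the count of members past the threshold is given only beside the share of all genes. The study has a single contrast of 3 untransfected samples and 3 samples transfected with CREB3L1, all of the same line, and asks which transcripts differ after transfection. The controls were untransfected rather than mock transfected, so an effect of CREB3L1 and of transfection itself cannot be told apart. Whether the transfected cells were a pool or a clone is not given in the sources used here. Nor do the labels say that the arrays came from separate cultures, and p-values measure only the spread between these samples, which may be technical.

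Chemokines are small secreted proteins that draw leukocytes along a gradient by binding G protein-coupled receptors, and they are grouped by the spacing of their first cysteines into CXC, CC and CX3C families. Cxcl1, Cxcl2 and Cxcl3 are closely related neutrophil attractants that act through Cxcr2. Cxcl10 is induced by interferon and attracts T cells through Cxcr3, and Ccl2 and Ccl7 attract monocytes. Transcription of many of these genes is switched on by NF-kB, and their mRNAs are short-lived. In tumours, chemokines made by the tumour cells shape which leukocytes enter and can promote vessel growth.

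Total RNA was labelled with biotin and hybridised to Affymetrix 3' expression arrays, and values are log2 RMA expression values. A log2 value of 5 was taken as the background level, since the table holds no detection calls. Differences are log2 values of CREB3L1 minus untransfected, each ± limma's standard error, and levels are mean ± SD with n = 3 per group. CREB3L1 replicate 3 stood apart, with Pearson correlations across probe sets of 0.984 to 0.989 with the other arrays against 0.996 to 0.999 among the rest. On that array the 3' control probe set of Gapdh exceeded the 5' one by 4.77, against -0.16 to -0.1 elsewhere. For the actin control the excess was 7.44, against 2.35 to 3.41 elsewhere. Values are therefore given with and without this array. Its part in the results was not tested beyond that. The rat Creb3l1 probe set read 3.36 in untransfected and 3.39 in CREB3L1 cells, below background in both. The sources used here do not describe the construct, which this probe set need not detect, so the reading says nothing about the labels. Of the 8 epithelial markers, Krt8, Krt14 and Krt5 were above background, while Krt7, Krt18, Krt19, Epcam and Cdh1 were below it in both groups. Of 7 measured leukocyte markers 6 were below background in both groups, Ptprc and Cd68 among them, and the exception was Cd14 (11.06 ± 0.19 and 10.77 ± 0.24). All 3 measured endothelial markers and all 4 milk protein genes were below background in both groups, and of 6 mesenchymal markers Vim, Acta2 and Fn1 were above it. Of these markers 1 passed the test, the fibronectin gene Fn1, which was lower in CREB3L1 cells (-0.36 ± 0.05, limma adjusted p = 0.0491). Without CREB3L1 replicate 3 its limma adjusted p was 0.0373. Of all genes 1.52% passed on the lower side, and 3.7% without that replicate. The markers serve as a check of levels, and the Fn1 call was not run through the other alternatives. In RNA from whole cultures, fewer cells making a transcript and less of it per cell cannot be told apart.

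Several of the chemokine genes lie in clusters, and 4 of their promoters are printed here because they belong to neighbours that differed in opposite directions (Cxcl1 and Cxcl2) and to the pair with the lowest differences (Cxcl10 and Ccl7). RefSeq promoter sequences of rat assembly GRCr8, running from 250 bases before to 50 bases after the gene start, were matched for 7 of the 10 members; Cxcl3, Ccl2 and Ccl5 had none. Capitals mark matches to the general NF-kB site (GGG, any 3 bases, then TTCC), in Cxcl10 and Ccl7 also to the AP-1 site (TGANTCA), and in Cxcl10 to an interferon response element (GAAA, any 2 bases, then GAAA).
Cxcl1, chr14:17479272-17479571, minus strand: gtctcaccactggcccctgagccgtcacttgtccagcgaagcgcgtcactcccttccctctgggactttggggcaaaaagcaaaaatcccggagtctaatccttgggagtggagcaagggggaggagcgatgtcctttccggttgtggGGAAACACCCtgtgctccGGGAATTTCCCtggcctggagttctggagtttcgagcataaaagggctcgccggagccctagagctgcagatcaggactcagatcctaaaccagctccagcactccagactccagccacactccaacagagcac
Cxcl2, chr14:17467206-17467505, minus strand: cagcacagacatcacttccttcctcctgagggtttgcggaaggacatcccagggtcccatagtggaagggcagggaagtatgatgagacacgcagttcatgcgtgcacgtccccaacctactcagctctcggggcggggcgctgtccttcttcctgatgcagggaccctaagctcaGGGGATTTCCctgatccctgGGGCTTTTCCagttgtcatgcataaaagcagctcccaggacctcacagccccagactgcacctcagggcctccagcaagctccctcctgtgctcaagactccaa
Cxcl10, chr14:15988816-15989115, plus strand: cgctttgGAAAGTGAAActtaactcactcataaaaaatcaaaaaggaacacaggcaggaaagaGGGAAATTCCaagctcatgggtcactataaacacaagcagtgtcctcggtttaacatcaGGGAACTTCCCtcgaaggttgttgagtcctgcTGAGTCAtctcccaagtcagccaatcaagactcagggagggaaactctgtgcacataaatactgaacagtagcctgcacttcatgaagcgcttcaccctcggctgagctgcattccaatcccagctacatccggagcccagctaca
Ccl7, chr10:67513845-67514144, plus strand: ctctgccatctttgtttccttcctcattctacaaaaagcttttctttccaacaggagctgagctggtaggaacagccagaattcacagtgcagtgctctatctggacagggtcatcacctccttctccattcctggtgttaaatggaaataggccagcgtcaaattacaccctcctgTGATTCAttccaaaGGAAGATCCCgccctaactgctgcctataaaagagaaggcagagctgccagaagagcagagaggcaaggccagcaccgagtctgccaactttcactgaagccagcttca

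On either strand, the general NF-kB site occurred in 5 of the 7 member promoters (Cxcl1, Cxcl2, Cxcl10, Ccl7 and Ccl20) and in 5.37% of all 33469 promoters of that length. Cxcl1 held a match on the reverse strand from 102 to 93 bases before the start and a pair overlapping on both strands from 84 to 74. Cxcl2 held matches from 74 to 65 and from 54 to 45 bases before the start. In Cxcl10 a match lay from 187 to 178 bases before the start and an overlapping pair from 128 to 118, and in Ccl7 a single match on the reverse strand lay from 59 to 50. Both Cxcl1, which was higher, and its neighbour Cxcl2, which was lower, held such matches, and any link to the direction was not tested. Narrower forms of the NF-kB site, GGG with TTTCC after any 2 bases and GGGA with TTTCC after any 1 base, occurred in 3 and 1 of the 7, against 1.53% and 0.362% of all promoters. TGANTCA occurred in Cxcl10 and Ccl7 and in 7.33% of all promoters, and the interferon response element in Cxcl10 alone among the 7 and in 3.92% of all. The letters TGACGT, the core of sites bound by the CREB and ATF family, were in 0 of the 7 and in 7.94% of all, and TGACGTGG, which contains them, in 0 and in 0.595%. TTGCGCAA was in 0 and in 0.17% of all, CCACG in 1 (Cx3cl1) and in 31.6%, and TATAAA in 3 and in 14.2%. These matches describe letters in a window and not bound sites.

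Of the 10 genes, 6 were read above background in at least 1 group. Cxcl1 alone of these was higher in the CREB3L1 arrays, while Cxcl2, Cxcl3, Cxcl10, Ccl2 and Ccl7 were lower, and in all 6 the groups did not overlap. Over all 7714 genes above background, the groups did not overlap in 14.7% with CREB3L1 higher and in 16.5% with CREB3L1 lower. By limma with Benjamini-Hochberg adjustment over 31042 probe sets, 1 member gene lay past an adjusted p of 0.05 on the higher side, Cxcl1, and 2 on the lower side, Cxcl3 and Ccl2. Over all 14217 genes 0.577% lay past it on the higher and 1.52% on the lower side. Without CREB3L1 replicate 3 the counts were 1 and 4, with Cxcl10 and Ccl7 added, against 2.02% and 3.7% of all genes. The members were chosen on this contrast, so nothing is read from these counts. The median difference was -0.32 over the 10 members, each by its brightest probe set, and -0.005 over all genes.

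**Figure D1:**
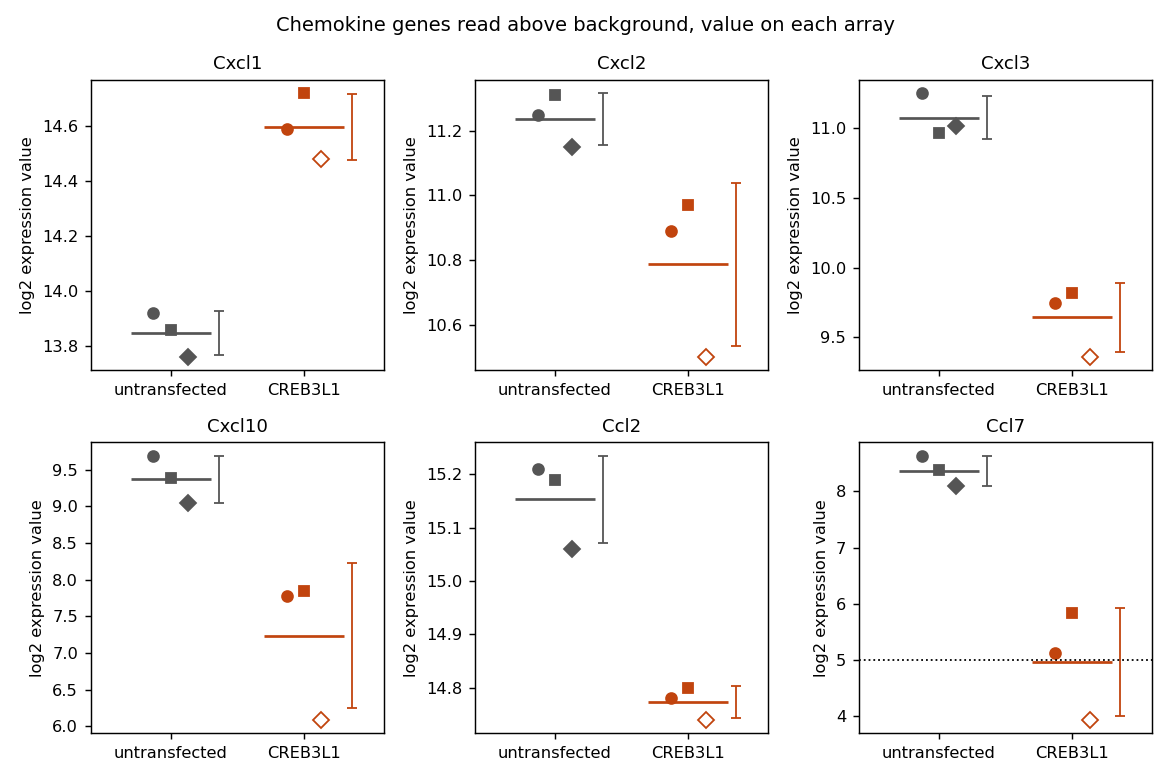
Log2 expression values (y axis, a scale of its own in each panel) of the 6 chemokine genes above background on the 3 untransfected (grey) and 3 CREB3L1 (orange) arrays, with circles, squares and diamonds for replicates 1, 2 and 3, an open diamond for CREB3L1 replicate 3, lines for means, bars for SD and a dotted line for the background level of 5. Cxcl1 is higher on all 3 CREB3L1 arrays, the other 5 genes are lower, and CREB3L1 replicate 3 lies lowest of its group in each panel.

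Among the neutrophil attractants, Cxcl1 was read by a single probe set, 1387316_at. Its values were 13.92, 13.86 and 13.76 in the untransfected samples and 14.59, 14.72 and 14.48 in the CREB3L1 samples. All 3 CREB3L1 arrays were above all 3 untransfected ones, and CREB3L1 replicate 3 was the lowest of its group. The means were 13.85 ± 0.08 and 14.60 ± 0.12, a difference of 0.75 ± 0.08, or 1.69-fold higher. Without CREB3L1 replicate 3 the difference was 0.81 ± 0.07.

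Cxcl2, next to Cxcl1 in the order of protein-coding genes, went the other way by a smaller amount. Its probe set 1368760_at read 11.25, 11.31 and 11.15 in untransfected and 10.89, 10.97 and 10.50 in CREB3L1 cells. The difference was -0.45 ± 0.14, a 1.37-fold lower level, and -0.31 ± 0.06 without CREB3L1 replicate 3. That replicate lay 0.43 below the mean of the other CREB3L1 arrays, whose own values were 0.08 apart, so much of the spread within the group came from it.

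Cxcl3, the third of these attractants, was read by 5 probe sets made from 3 source records. Probe set 1370633_at read 11.25, 10.96 and 11.01 in untransfected and 9.75, 9.82 and 9.36 in CREB3L1 cells, a difference of -1.43 ± 0.15 and a 2.70-fold lower level. Probe set 1370634_x_at read 10.05, 9.70 and 9.62 against 8.47, 8.68 and 8.61, a difference of -1.20 ± 0.13. Probe set 1388032_a_at read 9.30, 9.07 and 8.95 against 7.91, 7.77 and 8.20, a difference of -1.15 ± 0.14. These 3 probe sets come from the same record, and in each the groups were apart. The suffix _x marks probes that can also match other sequences and _a marks probes shared by several transcripts of the gene. Cxcl1, Cxcl2 and Cxcl3 are similar in sequence, so a share of cross-hybridisation between them was not tested.

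The remaining Cxcl3 probe sets lay below background on every array and showed no such difference. Probe set 1388033_at read 2.75, 2.88 and 2.81 in untransfected and 2.94, 2.82 and 2.65 in CREB3L1 cells (difference -0.02 ± 0.08). Probe set 1393182_at read 2.71, 2.80 and 2.65 against 2.80, 2.77 and 2.61 (difference 0.00 ± 0.07). The groups overlapped in both. CREB3L1 replicate 3 lay 0.43 below the mean of the other CREB3L1 arrays on 1370633_at, 0.04 above it on 1370634_x_at and 0.36 above it on 1388032_a_at, so the probe sets of the same gene placed this array differently. Without it the differences of the 3 bright probe sets were -1.29, -1.21 and -1.27, closer to each other than with all arrays. The mean of all 5 probe sets gave -0.76, as it takes in the dim ones.

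**Figure D2:**
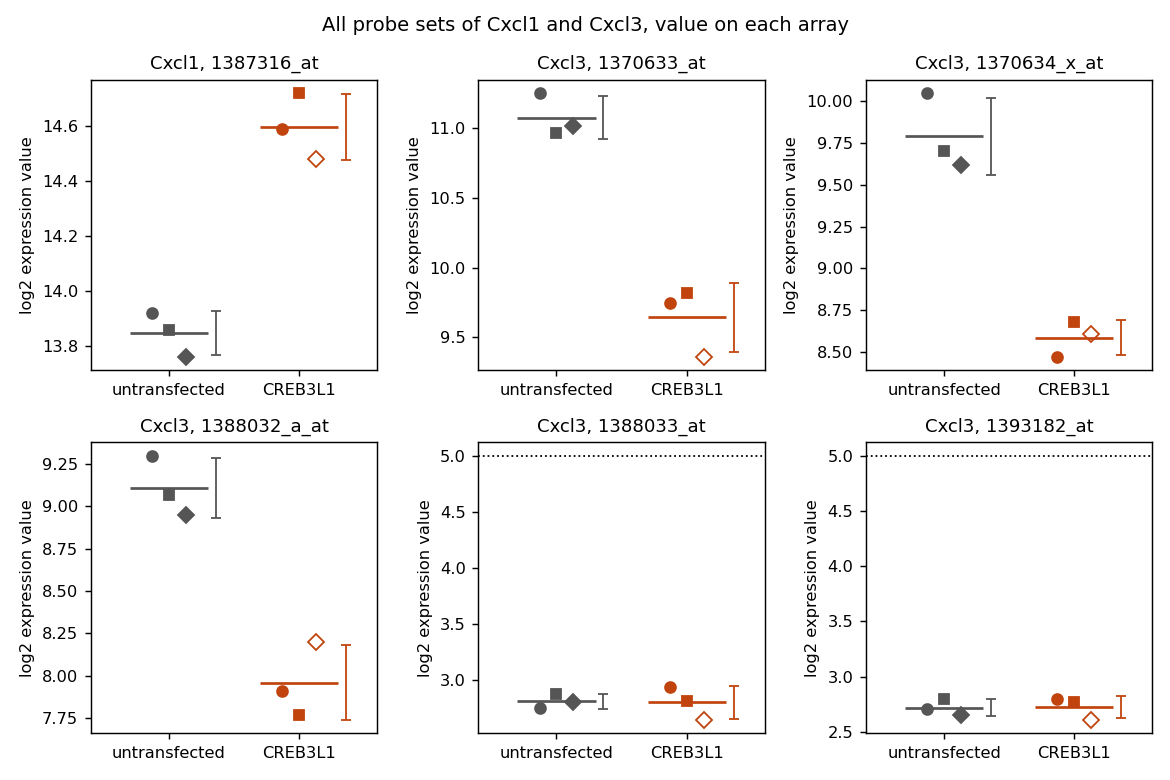
Log2 expression values (y axis, a scale of its own in each panel) for the single Cxcl1 probe set and the 5 Cxcl3 probe sets on each array, with symbols by replicate (open diamond, CREB3L1 replicate 3), lines for means, bars for SD and a dotted line for the background level of 5. The 3 bright Cxcl3 probe sets are lower on all CREB3L1 arrays, and 1388033_at and 1393182_at stay between 2.61 and 2.94 in both groups.

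Cxcl10, the interferon-induced attractant of T cells, read 9.68, 9.39 and 9.04 in untransfected and 7.77, 7.85 and 6.09 in CREB3L1 cells. All CREB3L1 arrays were below all untransfected ones, and replicate 3 lay 1.72 below the mean of the other CREB3L1 arrays. The means were 9.37 ± 0.32 and 7.24 ± 0.99, a difference of -2.13 ± 0.52 and a 4.38-fold lower level. Without CREB3L1 replicate 3 the difference was -1.56 ± 0.19 and the level 2.95-fold lower.

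Among the CC chemokines, Ccl2, the main monocyte attractant, read 15.21, 15.19 and 15.06 in untransfected and 14.78, 14.80 and 14.74 in CREB3L1 cells. The groups were apart and tight within themselves, and the difference of -0.38 ± 0.05 was a 1.30-fold lower level. CREB3L1 replicate 3 lay only 0.05 below the mean of the other CREB3L1 arrays here, and without it the difference was -0.37 ± 0.06.

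Ccl7, the gene next to Ccl2, had the lowest difference of the members. It read 8.63, 8.37 and 8.09 in untransfected and 5.13, 5.84 and 3.94 in CREB3L1 cells. In CREB3L1 cells replicates 1 and 2 were just above background and replicate 3 was below it. The means were 8.37 ± 0.27 and 4.97 ± 0.96, a difference of -3.39 ± 0.50. As replicate 3 was below the level of 5 it was set to that level for the fold, which gave a CREB3L1 mean of 5.32 and a level at least 8.24-fold lower. Without CREB3L1 replicate 3 the CREB3L1 mean was 5.48, the difference -2.88 ± 0.26 and the level 7.37-fold lower.

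The other 4 genes were below background in both groups on every probe set, and their groups overlapped. Ccl20, which attracts cells bearing Ccr6, read 3.98, 4.03 and 4.03 in untransfected and 3.40, 3.89 and 3.99 in CREB3L1 cells (-0.26 ± 0.16). Its lower mean came mostly from CREB3L1 replicate 1. Ccl5, an attractant of T cells and monocytes, read 1.64 to 1.70 and 1.62 to 1.69 (-0.02 ± 0.03). Cx3cl1, the membrane-bound chemokine fractalkine, read 1.93 to 1.99 and 1.87 to 2.02 (0.00 ± 0.05). The 3 probe sets of Cxcl12, the ligand of Cxcr4, differed by -0.01 ± 0.04, 0.00 ± 0.04 and -0.01 ± 0.04, with values from 1.66 to 2.85. For these genes no fold is given.

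**Figure D3:**
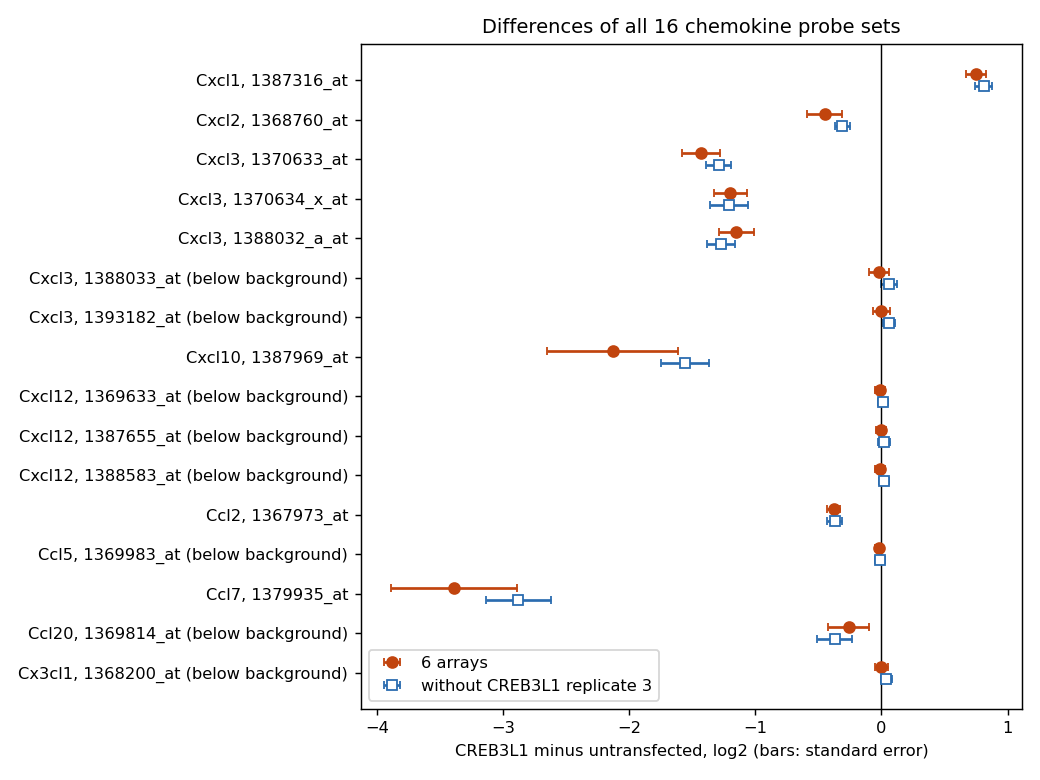
Difference of the CREB3L1 from the untransfected mean on the log2 scale (x axis) with its standard error for all 16 chemokine probe sets, with all 6 arrays (filled circles) and without CREB3L1 replicate 3 (open squares). Cxcl1 lies at 0.75, the bright probe sets of Cxcl2, Cxcl3, Cxcl10, Ccl2 and Ccl7 lie below 0 in both, and the 8 probe sets below background lie between -0.26 and 0 with all arrays.

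The order of the genes on the chromosomes was set beside the values. On chromosome 14 of assembly GRCr8 Cxcl2 and Cxcl1 are adjacent protein-coding genes, and Cxcl3 follows after 1 further gene. So Cxcl1, at 0.75, lay between Cxcl2, at -0.45, and Cxcl3, at -1.43. The chemokine genes that follow, Pf4, Ppbp and Cxcl6, were below background in both groups, with means of 2.01 to 2.82. Cxcl10 lies between Cxcl11 and Cxcl9, further chemokines induced by interferon, and both were below background, at 2.37 and 2.37 in untransfected cells and 2.37 and 2.35 in CREB3L1 cells. On chromosome 10 Ccl2 and Ccl7 are adjacent and differed by -0.38 and -3.39. The next gene, Ccl11, the eosinophil attractant eotaxin, was below background (2.96 and 2.95).

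**Figure D4:**
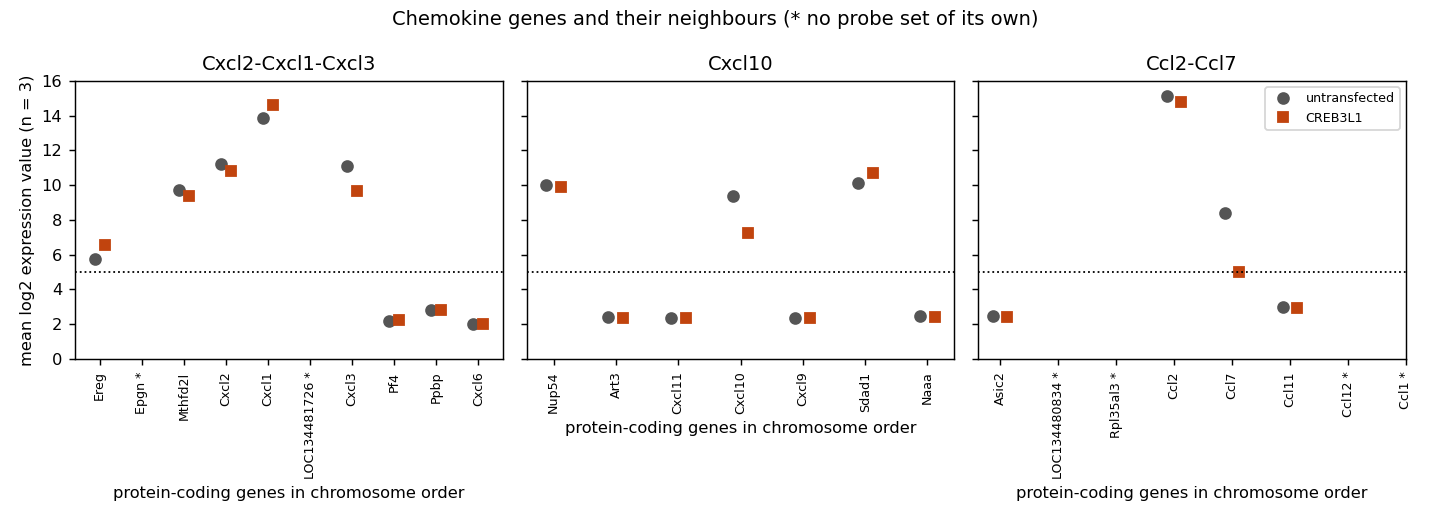
Mean log2 expression value (y axis, n = 3) in untransfected (grey circles) and CREB3L1 (orange squares) cells for the protein-coding genes around Cxcl2, Cxcl1 and Cxcl3, around Cxcl10 and around Ccl2 and Ccl7, in chromosome order at even spacing, with a dotted line for the background level of 5 and stars for genes without a probe set of their own. The groups should be compared within a gene and not between genes; Cxcl1 is the chemokine gene with the higher CREB3L1 mean above background, and Cxcl9, Cxcl11, Pf4, Ppbp, Cxcl6 and Ccl11 are below background in both groups.

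The rest of the chemokine pathway was read from 8 lists of other ligands, receptors and regulators, which together held 124 genes, 106 of them measured and 51 above background. Of the 106, 4 rose and 0 fell by limma at an adjusted p below 0.05, and the background was 0.577% and 1.52% of all genes. The 4 were Nfkb1, Tnfaip3, Zc3h12a and Irf7. The lists were chosen with earlier results of these data known, so these calls are not an independent test of the pathway. At an unadjusted limma p below 0.05 there were 13 higher and 4 lower. Of the lower, 1 was in the receptor list, 1 in the interferon list and 2 among other inflammatory genes. The share of all genes at this unadjusted level was not computed. No shift is therefore read from these counts or from the unadjusted counts given below for single lists. The median difference of the 106 was 0, against -0.005 over all genes.

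Nearly all other chemokine ligands lay below background on these arrays. Of 21 measured, 20 were below background in both groups, and Cxcl16, a membrane-bound ligand of Cxcr6, was the exception at 12.14 ± 0.13 and 12.40 ± 0.22 (0.26 ± 0.13, limma adjusted p = 0.697). None passed the test, and 0 had an unadjusted limma p below 0.05. Ccl27 had the smallest p, at -0.15 ± 0.06 and below background (limma adjusted p = 0.570).

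Of 17 measured chemokine receptors, 3 were above background, and none passed the test by limma (2 had an unadjusted p below 0.05, 1 in each direction). Cxcr2, the receptor of the Cxcl1 group, Cxcr3, the receptor of Cxcl10, and Ccr2, the receptor of Ccl2 and Ccl7, were below background in both groups, with means of 2.11 to 2.71. These 3 are named as receptors of members above background, and they are not all the receptors that bind members. The receptors above background were Ackr3 (11.95 ± 0.14 and 12.10 ± 0.03, a difference of 0.15 ± 0.08), Cxcr5 (6.56 ± 0.07 and 6.64 ± 0.35) and Ackr4. The other probe set of Cxcr5 was below background in both groups. Ackr4, a scavenger of CC chemokines, had the smallest p, at 7.42 ± 0.08 and 7.67 ± 0.07 (0.25 ± 0.06, limma adjusted p = 0.171), followed by Ccr1 at -0.10 ± 0.04, below background (limma adjusted p = 0.482).

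In the NF-kB list 2 of 12 measured genes rose and 0 fell. Nfkb1, which encodes the p105 precursor of the p50 subunit, went from 10.45 ± 0.02 to 10.95 ± 0.05, a rise of 0.51 ± 0.04 (limma adjusted p = 0.00637). Tnfaip3, which encodes A20, an NF-kB-induced inhibitor of NF-kB signalling, went from 8.05 ± 0.05 to 9.15 ± 0.15, a rise of 1.10 ± 0.08 (limma adjusted p = 0.00660). In both the groups were apart. The list's median was 0.23. Over 14 alternatives each kept its call in 13, with adjusted p from 0.000973 to 0.0765 for Nfkb1, lost with a mean-variance trend, and from 0.000399 to 0.063 for Tnfaip3, lost in an ordinary test. Without CREB3L1 replicate 3, Nfkbiz, an NF-kB cofactor, passed as well (0.45, limma adjusted p = 0.0364).

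Among 7 regulators of chemokine mRNA decay, 1 rose and 0 fell. Zc3h12a, which encodes Regnase-1, an endonuclease that degrades inflammatory mRNAs, went from 10.61 ± 0.16 to 11.41 ± 0.04, a rise of 0.80 ± 0.09 (limma adjusted p = 0.0226). The list's median was 0.09. The call was kept in 9 of 14 alternatives (adjusted p from 0.0103 to 0.131) and was lost in an ordinary test and without untransfected replicate 1 (0.107), untransfected replicate 2 (0.100), CREB3L1 replicate 1 (0.0943) or CREB3L1 replicate 2 (0.112).

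In the interferon list 1 of 13 measured genes rose and 0 fell. Irf7, a transcription factor that drives interferon genes, went from 8.06 ± 0.16 to 9.23 ± 0.29, a rise of 1.17 ± 0.17 (limma adjusted p = 0.0480), while Cxcl10, also known as an interferon-induced gene, differed by -2.13. The list's median was -0.03. The Irf7 call was kept in 5 of 14 alternatives (adjusted p from 0.00543 to 0.214) and was lost, among others, without any 1 array other than CREB3L1 replicate 3, at 0.0887 to 0.179. Without that array Irf9 (0.36) and Jak2 (0.76) passed as well (limma adjusted p = 0.0277 and 0.0178).

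None of the genes in the other 3 lists passed the test by limma with 6 arrays of equal weight. Of 11 receptors and adaptors that induce chemokines, 3 had an unadjusted p below 0.05, all higher. The interleukin-1 receptor subunit gene Il1rap was first with 0.58 ± 0.14 (limma adjusted p = 0.182) and the endotoxin receptor gene Tlr4 next with 0.34 ± 0.08 (limma adjusted p = 0.204). Il1rap passed without CREB3L1 replicate 3 (0.71, limma adjusted p = 0.0224). Its other probe set, 1387507_at, was below background in both groups (3.02 ± 0.05 and 3.03 ± 0.05). With the mean of its probe sets Il1rap did not pass (0.30, limma adjusted p = 0.217). Of 16 other inflammatory genes that NF-kB is known to drive, 2 had an unadjusted p below 0.05, both lower. The cytokine gene Il6 went from 9.03 ± 0.14 to 8.57 ± 0.08 (-0.47 ± 0.09, limma adjusted p = 0.100) and the adhesion molecule gene Icam1 from 5.83 ± 0.51 to 4.66 ± 0.23, below background (-1.17 ± 0.28, limma adjusted p = 0.186). Of 9 genes that shed, cleave or present chemokines, 1 had an unadjusted p below 0.05, the heparan sulfate proteoglycan gene Sdc2 (0.58 ± 0.10, limma adjusted p = 0.0887), and the protease gene Adam17 followed with 0.39 ± 0.29 (limma adjusted p = 0.981). With array weights Il1rap (0.66), Tlr4 (0.38), Il6 (-0.45) and Sdc2 (0.53) passed, at limma adjusted p = 0.0177, 0.0409, 0.0372 and 0.0218, and Sdc2 passed also with the mean of its probe sets (0.45, limma adjusted p = 0.0343).

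**Figure D5:**
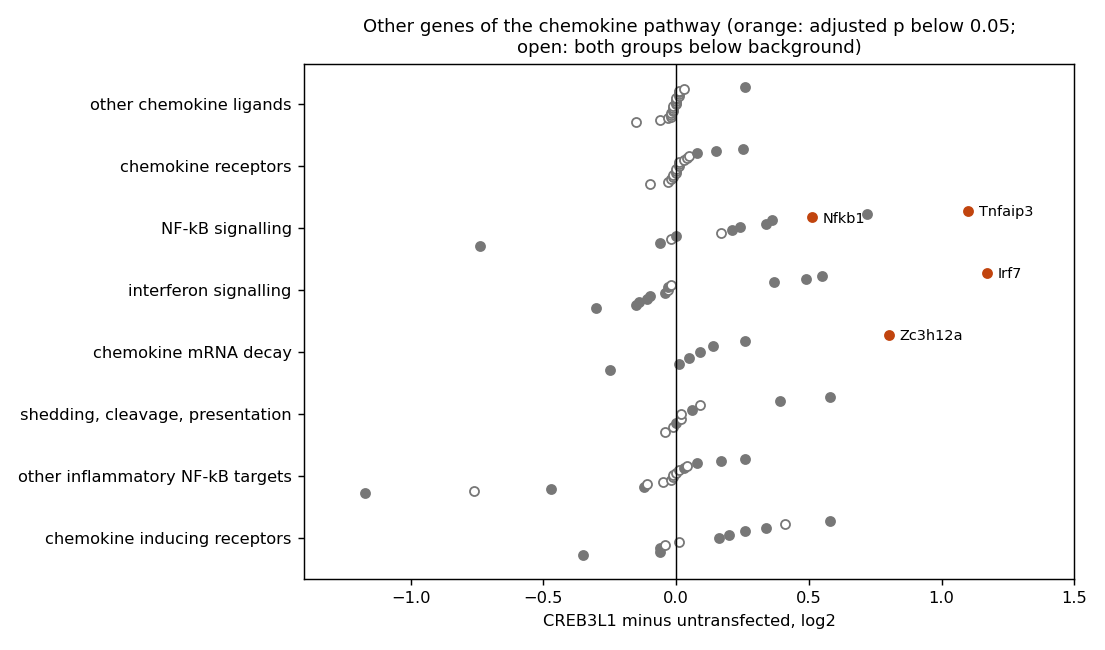
Difference of the CREB3L1 from the untransfected mean on the log2 scale (x axis) for each measured gene of 8 lists (rows), with filled points for genes above background in a group, open points for genes below it in both, and orange for genes past an adjusted p of 0.05. Nfkb1, Tnfaip3, Irf7 and Zc3h12a lie to the right at 0.51, 1.10, 1.17 and 0.80, and the ligand and receptor rows are mostly open points near 0.

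The genes most like Cxcl1 and Ccl7 over the 6 arrays were found by the Euclidean distance between values taken relative to the untransfected mean, among 7713 other genes above background. Nearest to Cxcl1 were Gpx8, a peroxidase of the endoplasmic reticulum, at a distance of 0.170, Klk10, a kallikrein-related protease, at 0.181 and Inhba, the activin A subunit, at 0.190. Their differences were 0.78, 0.70 and 0.75. Nearest to Ccl7 were Rin2 at 1.05, Star, which moves cholesterol into mitochondria, at 1.33 and the phosphatase gene Ptprr at 1.42. Their differences were -3.23, -3.29 and -3.22. Star went from 5.73 ± 0.72 to 2.44 ± 0.61, below background, a level at least 1.66-fold lower. Pearson correlations over the 6 arrays were 0.980 to 0.985 for the first group and 0.948 to 0.974 for the second. All 6 arrays are shared and the groups dominate the distance, so the likeness is a description.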

How the data were processed

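The table holds 6 Affymetrix 3' arrays as the authors deposited them, without changes here: log2 values from RMA, run in Partek 6.6, according to the submitters' processing notes. No source used here names the log base, and the range of 0.267 to 16.9 was taken as log2. Leaving out 57 controls from 31099 probe sets left 31042, which were tested by limma 3.58.1 under R 4.3.3 (lmFit, group means, eBayes, two-sided, Benjamini-Hochberg over all probe sets). Groups came from the label of what was transfected, replicate numbers follow deposit order, and no arrays were identical. The number of arrays limits the precision. Symbols are those of the GEO platform annotation, of some age, compared with RefSeq of assembly GRCr8 (0 changed); 20826 probe sets had 1 symbol, 436 several and 9780 none. The probe set with the highest mean stood for its gene. Named genes were all members, up to 4 genes past the threshold in each list or else the 2 with the smallest p, and the 3 genes most like Cxcl1 and the lowest member. The fit was tested on simulated data. Alternatives were quantile normalisation, median centring, each array left out, dim probe sets left out, trend, robust, weighted and ordinary tests, mean probe sets and a background of 4. The members and lists were chosen with earlier results of these data known, and the motifs after the values were seen.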

Additional observations from a re-analysis of the deposited data

How the results depend on the processing

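In every alternative in which the members were computed (10 in all), 1 member gene above background was higher and 5 were lower with the groups apart. Leaving out 1 array or moving the background level cannot make groups that are apart overlap. For those alternatives the result was thus fixed in advance. The members were also picked from this contrast, so nothing is read from the count. The counts over all probe sets, 132 higher and 299 lower, moved with the processing: leaving out 1 array in turn gave 28 to 479 higher and 116 to 756 lower. The top of each range came from leaving out CREB3L1 replicate 3, and without any 1 of the other arrays there were 28 to 44 higher and 116 to 135 lower. A mean-variance trend gave 79 higher, array weights gave 600 higher and 952 lower, and an ordinary test without moderation gave 9 higher and 65 lower. The list genes that rose, 4 with all arrays, numbered 2 to 8 with 1 array left out: 8 without CREB3L1 replicate 3, 3 without untransfected replicate 3 and 2 without any other. There were 10 with array weights, where 2 fell, and 1 in the ordinary test. Fewer samples enter the fits with an array left out; the cause of the other shifts was not tested. Median centring, quantile normalisation, robust eBayes and leaving out dim probe sets kept all these counts within 1.5 times. The Cxcl3 difference went to -0.76 with the mean of its probe sets. No paired analysis was possible because no replicate number in the labels is shared by both groups.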

Other observations

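Mthfd2l, a mitochondrial folate enzyme next to Cxcl2, went from 9.71 to 9.37 (-0.33 ± 0.06, limma adjusted p = 0.094). The EGF family ligand Ereg, on the same side, went from 5.77 to 6.54 (0.76 ± 0.42, limma adjusted p = 0.804). Beside Cxcl10, Nup54 and Sdad1 differed by -0.14 ± 0.20 and 0.55 ± 0.36 (limma adjusted p = 1.0 and 0.921). Depp1, near Cxcl12, went from 8.28 to 7.28 (-1.0 ± 0.31, limma adjusted p = 0.34). These are some of the genes lying near members, and they were not chosen by the rule for named genes. Other neighbours above background included Taf15 near Ccl5 (-0.47 ± 0.26), Zfp637 near Cxcl12 (-0.25 ± 0.47) and Arl2bp near Cx3cl1 (0.27 ± 0.12).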
